A study of Sus scrofa with 30 samples.

Results

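The insulin-like growth factor (IGF) system was followed through the reproductive cycle of the sow mammary gland in 10 genes: the 2 ligands *IGF1* and *IGF2*, the 2 receptors *IGF1R* and *IGF2R*, and the 6 binding proteins *IGFBP2* to *IGFBP7*. The genes were chosen by name, as IGF ligands, IGF receptors and IGF binding proteins with a value in the deposited table. Earlier results of these data were known at the choice. They comprised 22 annotated transcripts of the 61773 in the table, and the values of a gene's transcripts were added to 1 gene sum, 10 of 26012 gene sums in all. Mammary parenchyma was taken from 30 multiparous Danish Landrace × Yorkshire crossbred sows, 6 at each of 5 stages, and its RNA was sequenced. The stages were MG (day 70 of gestation), LG (day 110 of gestation), EL (day 2 postpartum), PL (day 10 postpartum, peak lactation) and W2 (day 2 after weaning). The sows were half-siblings, and different animals were taken at every stage. The samples were whole tissue, so fewer cells of a type and less RNA per cell cannot be told apart in any value.

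*IGF1* and *IGF2* are secreted peptides that promote growth and survival of mammary cells, and they reach the gland both from the circulation and from its own stroma. *IGF1R* is the tyrosine kinase receptor that carries the signal of both ligands, whereas *IGF2R* binds *IGF2* and takes it to the lysosome. The binding proteins hold the ligands outside the cell and lengthen, hinder or localise their action, with *IGFBP7* binding them only weakly, and *IGFBP5* is known from rodents as a protein of the involuting gland.

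Values are given in TPM (a level scaled by transcript length and by the total of the sample, so that genes can be compared). Within each stage, 3 of the 6 samples were near-identical: they differed from each other by at most 1.80 to 1.85% (median over transcripts), and their mean differed by 0.689 to 0.741% from the mean of the other 3, which differed from each other by 19.6 to 59.8%. These samples were not counted, which left n = 3 per stage (MG 1, 3 and 6, LG 1, 3 and 4, EL 3, 4 and 6, PL 2, 3 and 6, and W2 2, 3 and 6). The titles of the samples were followed for the stage. The stage named in the sample characteristics is exchanged between the samples titled MG and EL, and if it held, every MG and EL value here would change places. Milk protein transcripts other than *PAEP* made up 1.19 to 2.95% of all TPM in MG and 6.40 to 12.1% in EL. Sample PL 2 stood apart, with milk protein transcripts at 28.5% of all TPM against 13.9 and 9.14% in PL 3 and PL 6, and results that rest on it are also given without it. Most genes shifted together between stages: the median log2 fold change over all 26012 gene sums was −0.57 in PL vs MG and 0.68 in W2 vs PL. Comparisons were therefore repeated after dividing each sample by its median ratio over 3521 gene sums, which brought these medians to −0.052 and 0.093. With milk protein transcripts, here *PAEP* included, taken out and each sample rescaled, W2 vs PL of *IGF2R* was 0.47 on the log2 scale. This lay between 0.79 as deposited and 0.066 after the median ratio scaling.

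In an F test over the 5 stages (limma, Benjamini-Hochberg adjustment over all gene sums), 2 of the 10 genes passed an adjusted p of 0.05, *IGFBP3* (adjusted p = 0.017) and *IGFBP7* (adjusted p = 0.0022), against 18.3% of all gene sums, a share close to that of the 10 genes. With the median ratio scaling, 3 genes passed (*IGFBP3*, *IGFBP5* and *IGFBP7*), against 8.17% of all gene sums. Without sample PL 2, 4 genes passed, against 20.8%, with *IGFBP2* and *IGFBP5* added to *IGFBP3* and *IGFBP7*. All 13 differences between pairs of stages that passed the test were comparisons with PL.

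**Figure D1:**
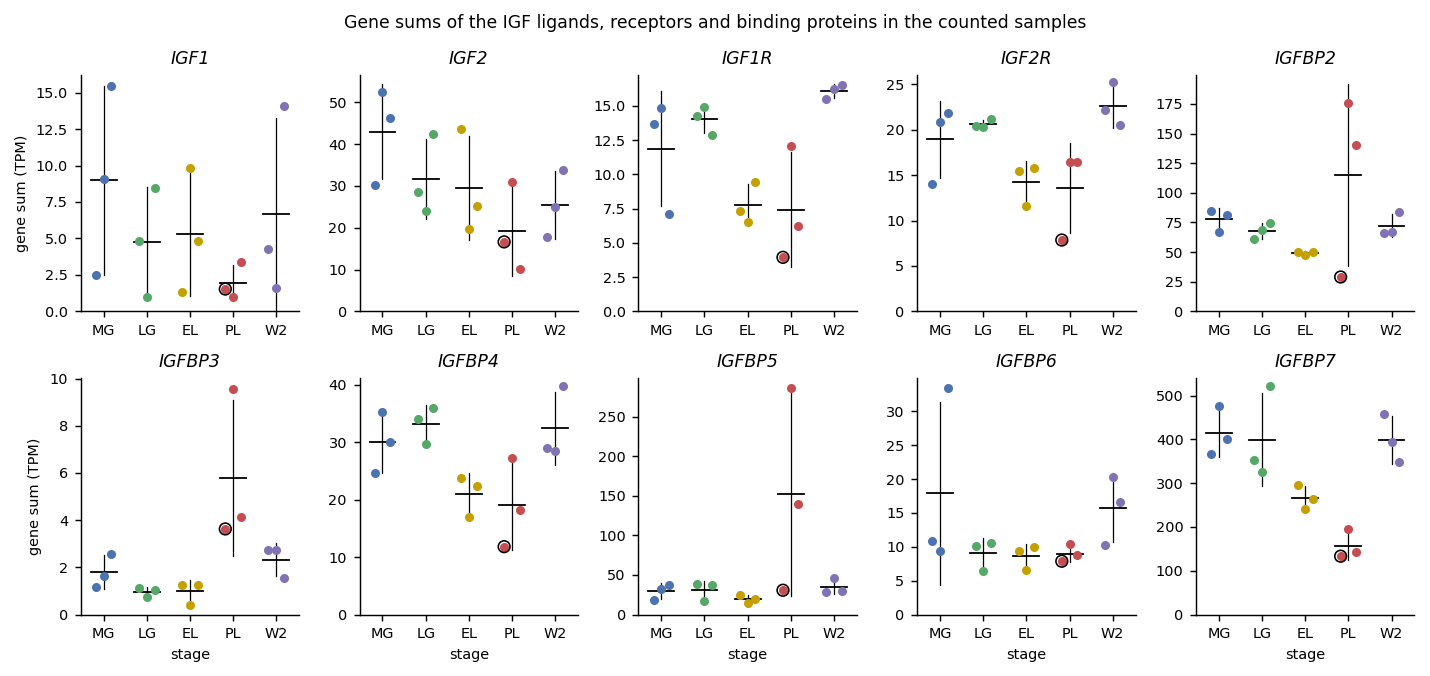
Gene sums (TPM, linear axis) of the 10 genes in the 15 counted samples, by stage. Points are samples, horizontal lines are stage means, vertical lines are ± 1 SD (n = 3), and the circled point is sample PL 2. IGFBP3 was highest and IGFBP7 lowest at PL, while IGFBP2 and IGFBP5 were high in PL 3 and PL 6 and not in PL 2.

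Among the ligands, *IGF2* was the more abundant, and both had their lowest mean at PL. The gene sum of *IGF1* was 2.49, 9.04 and 15.4 TPM in MG, 4.80, 1.02 and 8.49 TPM in LG, 1.33, 9.82 and 4.81 TPM in EL, 1.53, 1.01 and 3.35 TPM in PL, and 4.28, 1.58 and 14.1 TPM in W2. Samples of every stage overlapped with those of every other stage. The largest difference, PL vs MG, was −1.76 on the log2 scale (SE 0.90, limma adjusted p = 0.17) and did not pass the test.

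*IGF2*, which drives growth before birth and is expressed by stromal cells in many tissues, gave 30.3, 52.4 and 46.2 TPM in MG, 28.5, 23.9 and 42.4 TPM in LG, 43.6, 19.8 and 25.2 TPM in EL, 16.6, 31.1 and 10.1 TPM in PL, and 17.7, 24.9 and 33.9 TPM in W2. The mean fell from 43.0 ± 11.4 TPM in MG to 19.2 ± 10.7 TPM in PL (SD, n = 3), although sample PL 3 lay above the lowest MG sample. This difference passed the test at −1.25 (log2, SE 0.42, adjusted p = 0.046). It was −0.60 (adjusted p = 0.37) after the median ratio scaling, and it lost significance on leaving out any of 10 of the 15 samples (adjusted p up to 0.15), all but MG 1, EL 3, EL 4, PL 3 and W2 2.

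Both receptors had lower means at EL and PL than at LG and W2. *IGF1R* was 13.7, 14.8 and 7.12 TPM in MG, 14.3, 14.9 and 12.9 TPM in LG, 7.35, 6.52 and 9.43 TPM in EL, 3.95, 12.1 and 6.27 TPM in PL, and 15.5, 16.2 and 16.6 TPM in W2. Every W2 sample was above every sample of the other stages. The rise from PL (7.44 ± 4.20 TPM) to W2 (16.1 ± 0.520 TPM) passed the test at 1.20 (log2, SE 0.35, adjusted p = 0.020). After the median ratio scaling this rise was 0.50 (adjusted p = 0.30), and without PL 2 it was 0.85 (adjusted p = 0.072).

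*IGF2R*, the clearance receptor for *IGF2*, followed the same order of stages (W2, LG, MG, EL, PL). Its gene sum was 14.0, 20.9 and 21.8 TPM in MG, 20.4, 20.3 and 21.2 TPM in LG, 15.4, 11.6 and 15.8 TPM in EL, 7.85, 16.4 and 16.4 TPM in PL, and 22.2, 25.2 and 20.5 TPM in W2. All 3 W2 samples lay above the PL samples, with a log2 difference of 0.79 (SE 0.27, adjusted p = 0.041). This difference was 0.066 (adjusted p = 0.86) after the median ratio scaling and 0.45 (adjusted p = 0.12) without PL 2.

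*IGFBP7*, a secreted protein of vessel walls and stroma, was by far the most abundant member of the system and fell at peak lactation. It gave 367, 476 and 401 TPM in MG, 352, 325 and 521 TPM in LG, 296, 241 and 264 TPM in EL, 133, 195 and 143 TPM in PL, and 457, 393 and 348 TPM in W2. The 3 PL samples were below all 12 samples of the other stages, and the 3 EL samples lay between PL and the rest. The mean was 415 ± 55.7 TPM in MG, 267 ± 27.2 TPM in EL, 157 ± 33.3 TPM in PL and 400 ± 54.8 TPM in W2 (SD, n = 3). PL was lower than MG by −1.41 (log2, SE 0.20, adjusted p = 0.00072), lower than LG by −1.33 (SE 0.20, adjusted p = 0.0016), and W2 was above PL by 1.36 (SE 0.20, adjusted p = 0.00062). These 3 differences also passed after the median ratio scaling, at −0.75 (adjusted p = 0.015), −0.82 (adjusted p = 0.012) and 0.61 (adjusted p = 0.037), and with any 1 sample left out. The step from EL to PL, −0.78 (SE 0.20, adjusted p = 0.047), was just past the threshold, and it was −0.45 (adjusted p = 0.18) after the scaling.

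Markers of other tissue compartments were compared over the same stages. The fibroblast markers *COL1A1*, *COL1A2*, *COL3A1*, *PDGFRA*, *DCN* and *LUM* all had a value. In PL vs MG 5 of 6 were lower in PL, against 23% of all gene sums. Their summed level was 1541 to 2336 TPM in MG, 472 to 1087 TPM in PL and 1401 to 2632 TPM in W2. After the median ratio scaling 2 of the 6 (*COL3A1* and *LUM*) were lower, and without PL 2 also 2. No share of all gene sums is given for these 2 settings. Of the endothelial markers, 4 of 5 had a value, and their sum was 115 to 168 TPM in MG, 71.2 to 118 TPM in PL and 120 to 135 TPM in W2. Of these 4, 1 was lower in PL than MG, against 23% of all gene sums. It was *KDR* (log2 −1.38, SE 0.26, adjusted p = 0.0030, and −0.75, adjusted p = 0.032, after the scaling). *PECAM1*, *VWF* and *CLDN5* did not pass, at −0.71, −0.56 and 0.19 (adjusted p = 0.081, 0.12 and 0.84). After the scaling they were −0.055, 0.083 and 0.79 (adjusted p = 0.94, 0.85 and 0.32). The part of the fibroblast and endothelial markers in the fall of *IGFBP7* was not tested.

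*IGFBP3*, the main carrier of *IGF1* in blood, was the least abundant binding protein in the gland and rose at peak lactation. It was 1.18, 1.65 and 2.57 TPM in MG, 1.11, 0.722 and 1.05 TPM in LG, 1.27, 0.401 and 1.27 TPM in EL, 3.63, 9.58 and 4.14 TPM in PL, and 2.73, 2.72 and 1.53 TPM in W2. Each PL sample, PL 2 included, exceeded all 12 samples of the other stages. The rise was 1.38 over MG (log2, SE 0.40, adjusted p = 0.027), 1.99 over LG (SE 0.40, adjusted p = 0.0074) and 2.03 over EL (SE 0.40, adjusted p = 0.014). After the median ratio scaling it was 1.95, 2.44 and 2.38 (adjusted p = 0.0053, 0.0019 and 0.0036). The difference from PL to W2 was −1.06 (SE 0.40, adjusted p = 0.060) as deposited and −1.71 (adjusted p = 0.0092) after the scaling. The rise over MG lost significance without MG 1, MG 3 or PL 3, with adjusted p up to 0.085.

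*IGFBP5*, which binds to the extracellular matrix, rose more strongly at PL but in 2 of the 3 sows. Its gene sum was 18.4, 32.5 and 37.9 TPM in MG, 38.2, 17.7 and 37.2 TPM in LG, 25.1, 15.2 and 19.6 TPM in EL, 30.7, 285 and 139 TPM in PL, and 28.8, 45.6 and 30.2 TPM in W2. PL 3 and PL 6 were far above every other sample, whereas PL 2 lay within the range of MG, LG and W2. PL exceeded MG by 1.90 (log2, SE 0.63, adjusted p = 0.044) and EL by 2.42 (SE 0.63, adjusted p = 0.048). Both calls were near the threshold, and they were lost on leaving out any of 13 and of 14 of the 15 samples, with adjusted p up to 0.14 and 0.13. The exceptions were PL 2, without which the differences were 2.79 (adjusted p = 0.0016) and 3.32 (adjusted p = 0.0012), and, for PL vs MG, LG 3. Without PL 2 the spread between it and the other PL sows is not in the test. After the median ratio scaling the PL samples were 54.2 to 340 and the 12 others 16.6 to 37.4 scaled TPM, with no overlap, and the differences were 2.55 (adjusted p = 0.0094) and 2.76 (adjusted p = 0.012). The scaled fall from PL to W2 was −2.37 (adjusted p = 0.012).

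*IGFBP2*, the neighbour of *IGFBP5* on chromosome 15, also separated the PL sows. It was 84.7, 67.2 and 81.5 TPM in MG, 60.9, 68.9 and 74.4 TPM in LG, 50.4, 47.5 and 50.3 TPM in EL, 29.0, 176 and 140 TPM in PL, and 66.1, 67.0 and 84.0 TPM in W2. PL 3 and PL 6 held the highest values of the 15 samples and PL 2 the lowest. With all 3 sows no comparison passed the test, and the difference with the smallest p, PL vs EL, was 0.85 (log2, SE 0.48, adjusted p = 0.37). Without PL 2 it was 1.66 (SE 0.15, adjusted p = 0.00012), and PL vs MG was 1.02 (adjusted p = 0.0012). This fit has PL 3 and PL 6 alone in PL. Leaving out the sow that differed takes its spread out of the test, and the SE of PL vs EL fell from 0.48 to 0.15. These adjusted p therefore do not cover the difference between the PL sows. Under the median ratio scaling the 3 PL samples gave 51.2 to 209 scaled TPM and still overlapped with the other stages.

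PL 3 and PL 6 shared other high values. The leukocyte markers, 4 of 5 with a value, summed to 30.6 to 50.7 TPM in MG, 16.1, 251 and 310 TPM in PL 2, PL 3 and PL 6, and 31.0 to 43.0 TPM in W2, and most of the PL sum was *CD14*. *CD14*, a lipopolysaccharide co-receptor of monocytes that epithelium can also express, was 9.23 TPM in PL 2, 234 in PL 3 and 298 in PL 6, and 3.45 to 9.92 TPM in the other 12 samples. Other leukocyte markers did not follow it: *PTPRC* was 3.39 to 5.75 TPM in PL, and *CSF1R* was lower in PL than MG (log2 −2.29, SE 0.48, adjusted p = 0.0056). *KRT5*, a keratin of basal cells, was 57.3, 273 and 305 TPM in the 3 PL samples, where the 4 of 5 myoepithelial markers with a value summed to 772, 1679 and 1948 TPM, against 1394 to 1518 TPM in MG. *LEP*, the adipokine leptin, was 1.56, 15.8 and 14.6 TPM against at most 0.622 TPM elsewhere, while the 3 of 5 adipocyte markers with a value summed to 253 to 388 TPM in PL and 444 to 732 TPM in MG. The 5 luminal epithelial markers summed to 770, 1569 and 1422 TPM in PL 2, PL 3 and PL 6, and to 1122 to 1435 TPM in MG. Their part in the levels of *IGFBP2* and *IGFBP5* was not tested.

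*IGFBP4*, an inhibitor of IGF action that proteases remove, behaved like the receptors. It was 24.7, 35.2 and 30.0 TPM in MG, 34.1, 29.7 and 35.9 TPM in LG, 23.8, 17.0 and 22.4 TPM in EL, 11.8, 27.3 and 18.2 TPM in PL, and 29.0, 28.4 and 39.8 TPM in W2. The W2 samples were above all EL and PL samples, and W2 exceeded PL by 0.81 (log2, SE 0.27, adjusted p = 0.037), which became 0.082 (adjusted p = 0.82) after the median ratio scaling. *IGFBP6*, which prefers *IGF2*, gave 10.8, 9.36 and 33.5 TPM in MG and 6.36 to 10.5 TPM in LG, EL and PL. In W2 it was 10.3, 20.3 and 16.6 TPM, above every EL sample, but W2 vs EL did not pass the test (log2 0.80, SE 0.42, adjusted p = 0.25).

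The make-up of the binding protein mRNA does not depend on how samples are scaled. *IGFBP7* held 66.9 to 77.0% of the summed TPM of the 6 binding proteins in each of the 12 samples outside PL. In PL it held 61.6% in PL 2, 27.7% in PL 3 and 31.5% in PL 6, below all others. The share of *IGFBP5* was 14.2, 40.6 and 30.7% in these 3 samples, against 3.64 to 8.19% elsewhere, and that of *IGFBP3* was 1.68, 1.36 and 0.914%, against 0.122 to 0.488%. PL 2, whose *IGFBP5* level was unremarkable in TPM, thus had a larger *IGFBP5* share than any sample outside PL. The share of *IGFBP2* was 13.4, 25.0 and 31.0% in PL and 10.8 to 16.7% elsewhere, so that PL 2 was within that range. *IGFBP4* and *IGFBP6* made up 3.88 to 7.65% and at most 5.72% over the 15 samples, with PL overlapping the other stages. The shares add up to a constant, so a lower share of 1 protein raises the others, and they are given as a description.

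**Figure D2:**
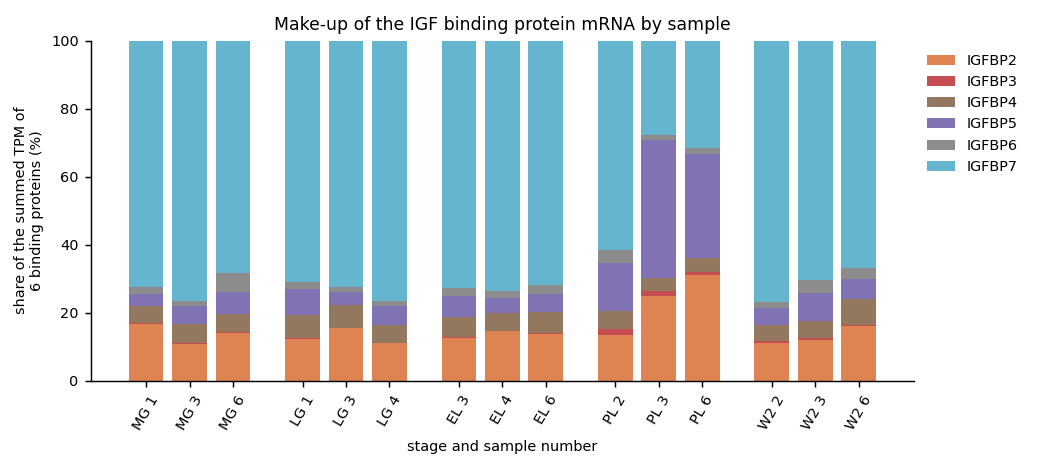
Share of each binding protein in the summed TPM of the 6 binding protein genes (%), 1 stacked bar for each of the 15 counted samples. The share of IGFBP7 was at least 66.9% in the 12 samples outside PL and 61.6, 27.7 and 31.5% in PL 2, PL 3 and PL 6, where IGFBP5 and, in PL 3 and PL 6, IGFBP2 took larger shares.

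Summed by role, the binding proteins gave 572 ± 58.7 TPM in MG, 542 ± 122 TPM in LG, 367 ± 38.7 TPM in EL, 458 ± 244 TPM in PL and 557 ± 36.9 TPM in W2 (SD, n = 3). The receptors gave 30.8 ± 4.31, 34.7 ± 0.571, 22.0 ± 3.59, 21.0 ± 8.48 and 38.7 ± 2.35 TPM at the same stages, and the ligands 52.0 ± 16.6, 36.4 ± 13.2, 34.8 ± 8.73, 21.2 ± 9.69 and 32.2 ± 13.9 TPM. Binding protein transcripts thus exceeded those of the ligands in every stage.

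The stage comparisons differed in how many of the 10 genes passed the test. In PL vs MG 4 passed, against 25.2% of all gene sums, with *IGFBP3* and *IGFBP5* higher in PL (2.23% of all were higher) and *IGF2* and *IGFBP7* lower (23% were lower). In PL vs LG 2 passed, *IGFBP3* and *IGFBP7*, against 14.7%. In PL vs EL 3 passed, against 4.62%: *IGFBP3* and *IGFBP5* were higher (0.777% of all) and *IGFBP7* lower (3.85%). At the fold threshold used in the study, an absolute log2 fold change of 2, on the deposited values the 2 that were higher in PL vs EL remained, against 1.05%, and none did in the other 9 comparisons. Differences past both thresholds after the median ratio scaling also included *IGFBP5* in PL vs MG (2.55) and W2 vs PL (−2.37), and *IGFBP3* and *IGFBP5* in PL vs LG (2.44 and 2.36, adjusted p = 0.0019 and 0.017). In W2 vs PL 4 passed, all higher in W2, against 32.8% of all gene sums and 30.4% higher: *IGF1R*, *IGF2R*, *IGFBP4* and *IGFBP7*. After the median ratio scaling 3 passed in W2 vs PL, against 13.1%, and they were *IGFBP7* (higher in W2), *IGFBP3* and *IGFBP5* (both lower).

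**Figure D3:**
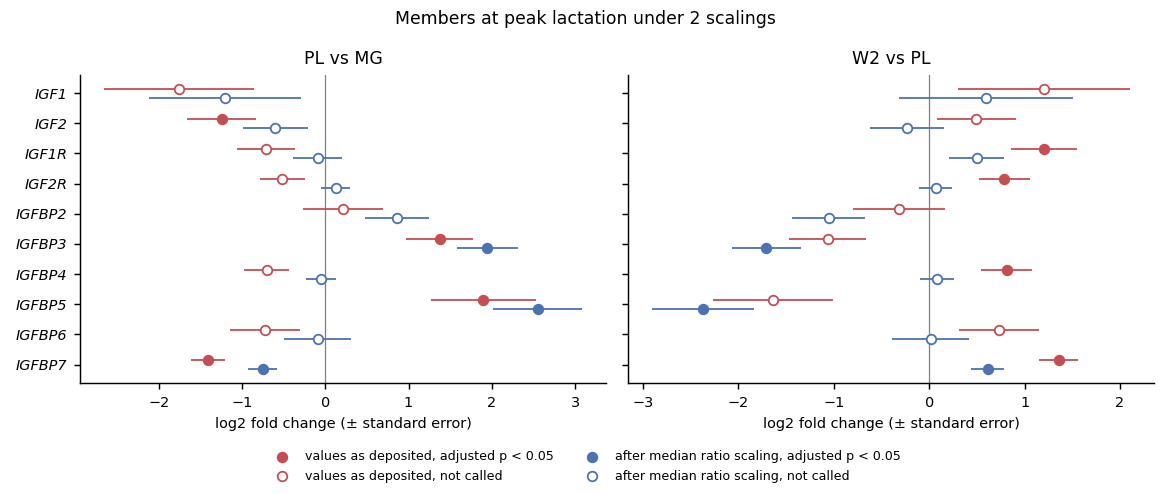
Log2 fold change (± standard error) of the 10 genes in PL vs MG and W2 vs PL, with the deposited values in red and after median ratio scaling in blue. Filled points passed an adjusted p of 0.05 in limma, and IGFBP3, IGFBP5 and IGFBP7 were filled under both scalings in PL vs MG, whereas IGF2 was not after scaling.

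The 6 comparisons without PL gave no call in limma. Of all gene sums, 0.0115% passed the adjusted threshold in LG vs MG, 0.0269% in EL vs MG, 0.0115% in W2 vs MG, 0.0154% in EL vs LG, 0.0346% in W2 vs LG and 0.554% in W2 vs EL. At an unadjusted p of 0.05, 0 of the 10 genes passed in LG vs MG (4.43% of all), 1 in EL vs MG (15.9%), 0 in W2 vs MG (3.09%), 3 in EL vs LG (6.19%), 1 in W2 vs LG (7.57%) and 5 in W2 vs EL (25.1%). With 3 sows against 3, an exact two-sided permutation test of a single gene cannot give a p below 0.10.

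The values at early lactation lay low for several of the genes without passing the test. *IGF1R*, *IGF2R*, *IGFBP2*, *IGFBP4* and *IGFBP7* were each lower in all 3 EL samples than in all 3 LG samples, 5 of the 10 genes against 16% of all gene sums. After the median ratio scaling these were still 5 genes, against 9.86%. The largest of these differences, *IGF1R*, was −0.83 (log2, SE 0.35, adjusted p = 0.79). In W2 vs EL, 8 of the 10 genes were higher in every W2 sample, against 35.5% of all gene sums, the exceptions being *IGF1* and *IGF2*. After the scaling 1 of them did not overlap, *IGF1R*, against 14.8%.

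The order of the stages by mean log2 level was W2, LG, MG, EL, PL for both receptors and LG, W2, MG, EL, PL for *IGFBP4*. It was MG, W2, LG, EL, PL for *IGFBP7*, PL, W2, MG, LG, EL for *IGFBP3* and PL, W2, LG, MG, EL for *IGFBP5*. Of the 40 steps between neighbouring stages in the orders of the 10 genes, 1 passed the test, from EL to PL in *IGFBP7*. The steps from PL to W2 in *IGFBP3* (adjusted p = 0.060) and *IGFBP5* (adjusted p = 0.063) came next.

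At the level of single transcripts, 4 of the 10 genes had more than 1 annotated transcript in the table, and in each of them the leading transcript changed from sample to sample. *IGF1R* was mostly XM_021082915.1, with 75.6% of its TPM over the 15 samples, yet this transcript was listed at 0 in LG 4, EL 4, PL 2 and PL 6. In EL 4 and PL 6 NM_214172.1, which held 17.6% over all samples, took 99.8% of the gene sum. In LG 4 XM_021082918.1 took 63.3%, and this transcript was at most 0.0496 TPM in every other sample. The gene sum of LG 4, 12.9 TPM, was close to the 14.3 and 14.9 TPM of LG 1 and LG 3.

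*IGF1* and *IGF2* showed the same kind of exchange. The *IGF1* transcript XM_005664199.3 held 31.9% of the TPM of *IGF1* over the 15 samples but was listed at 0 in 10 of them, and it reached 12.8 TPM in MG 6, 7.56 TPM in EL 4 and 6.06 TPM in W2 6. These were also the samples with the highest *IGF1* gene sums of their stages. XM_005664198.3 (29.7%) had a value in every sample and XM_005664197.3 (23.7%) was at 0 in 4. For *IGF2*, XM_021080637.1 (36.9%) was present in all 15 samples at 3.52 to 23.5 TPM, XM_021080576.1 (30.5%) was at 0 in W2 2, and XM_021080641.1 (20.5%) was at 0 in 8 samples and at 26.4 TPM in MG 3. All 3 PL samples were among those 8. *IGFBP6* was divided between NM_001100190.1 (62.8%) and XM_005652513.3 (37.2%), both with a value in all 15 samples, and the latter led in MG 1, LG 4, EL 3, PL 3 and W2 2 with 54.3 to 69.9% of the gene sum.

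**Figure D4:**
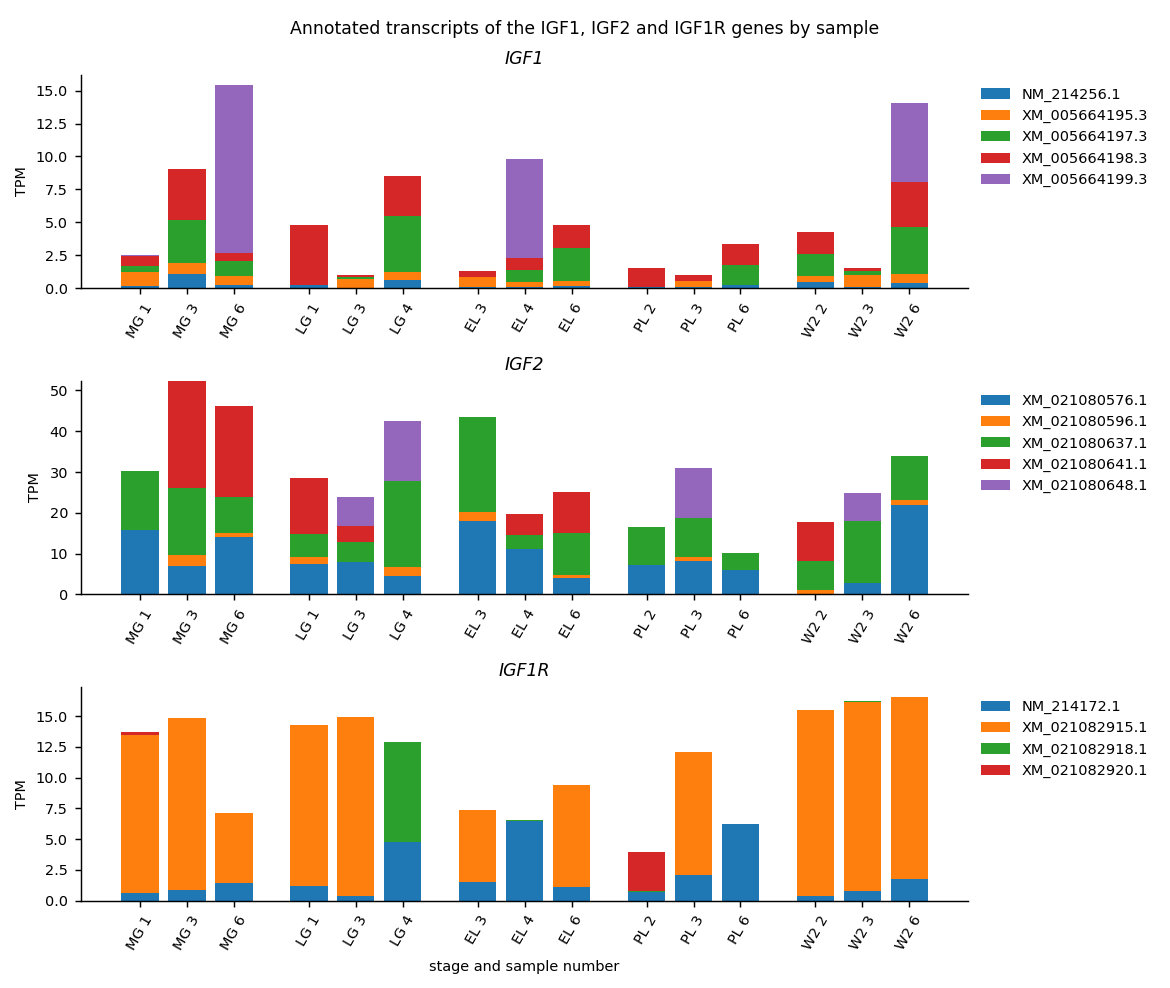
TPM of the annotated transcripts of IGF1, IGF2 and IGF1R in each of the 15 counted samples, as stacked bars with 1 colour for each transcript. The transcript that makes up most of a bar changes between samples of a stage, as in IGF1R, where XM_021082915.1 was at 0 in LG 4, EL 4, PL 2 and PL 6.

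When the 61773 transcripts were fitted in place of gene sums, 1 transcript of the system, NM_001163801.1 of *IGFBP7*, passed the F test (adjusted p = 0.0081), against 2.6% of all transcripts. *IGFBP3*, with its single transcript NM_001005156.1, had an adjusted p of 0.080 in that fit and of 0.035 in PL vs LG. *IGF2R*, *IGFBP2*, *IGFBP4* and *IGFBP5* also had 1 transcript each in the table. Transcripts that the study assembled without a reference were not assigned to genes, so reads on such transcripts of *IGF1* or *IGF2*, of which 5 of 8 and 5 of 17 reference transcripts were in the table, are not in the sums.

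The genes lie on 7 chromosomes of Sscrofa11.1. *IGFBP2* (chr15:118822092-118850985) and *IGFBP5* (chr15:118861816-118877787) are neighbours with 10830 bases between them. *IGF2* is at chr2:1469183-1496417, *IGF1* at chr5:81762027-81909253, *IGFBP6* at chr5:18352884-18357225, *IGF1R* at chr1:137383623-137691038, *IGF2R* at chr1:7369485-7472480, *IGFBP4* at chr12:21966524-21980043 and *IGFBP3* at chr18:50002921-50009425. *IGFBP7* (chr8:56283089-56357822) overlaps *POLR2B*, *IGF1R* overlaps *PGPEP1L* and *IGF1* overlaps 2 uncharacterised genes. The library kit does not mark the strand, so reads in the shared stretches cannot be told apart.

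Across the 15 samples the genes fell into like and unlike patterns, which are given as a description because the samples share their stage and the common shift of most genes between stages. On the log2 scale *IGFBP3* went with *IGFBP5* (Pearson r = 0.86) and *IGFBP2* with *IGFBP5* (r = 0.75). *IGFBP4* went with *IGF2R* (r = 0.87), *IGF1R* (r = 0.85) and *IGFBP7* (r = 0.81). Between the groups, *IGFBP7* had r = −0.43 with *IGFBP3* and −0.39 with *IGFBP5*. Among 7696 other named genes with a mean of at least 5 TPM, those most like *IGFBP7* were *CLEC14A* (r = 0.97), *PLXND1* (r = 0.97) and *LZTS1* (r = 0.96). *CLEC14A* and *PLXND1* are known as proteins of endothelial cells, whereas of the 4 endothelial markers with a value only *KDR* passed in PL vs MG. Among 7697 such genes, those most like *IGFBP3* were *CYSTM1* (r = 0.89), *TBC1D8* (r = 0.86) and *CKMT1A* (r = 0.86).

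Of 13 further genes that regulate the ligands outside and inside the cell, 7 had a value. *HTRA1*, a secreted protease that cleaves binding proteins, passed the F test (adjusted p = 0.015, and 0.054 after the scaling). It was 70.9 to 78.3 TPM in MG, 53.2 to 80.7 TPM in LG, 38.0 to 52.5 TPM in EL, 19.1 to 45.5 TPM in PL, and 80.2 to 96.4 TPM in W2. PL was lower than MG by −1.16 (log2, SE 0.27, adjusted p = 0.011), which became −0.50 (adjusted p = 0.070) after the scaling. In PL vs MG 1 of the 7 was higher and 2 lower, against 2.23 and 23% of all gene sums. After the scaling 2 were higher, *STC2* and the growth hormone receptor *GHR* (1.62, adjusted p = 0.024), and 1 was lower, *PAPPA2*. No share of all gene sums is given beside these scaled counts. *STC2*, *GHR* and *PAPPA2* did not pass the F test (adjusted p = 0.055, 0.30 and 0.056) and were named after their values were seen. *STC2*, an inhibitor of the pappalysin proteases that cut binding proteins, was the higher one as deposited. It was 5.64, 32.7 and 21.0 TPM in PL against 2.95 to 6.09 TPM elsewhere (log2 1.87 over MG, SE 0.47, adjusted p = 0.014, and 2.48, adjusted p = 0.0019, after the scaling). *PAPPA2*, a pappalysin, was the other lower one. It was 0.0907 to 0.232 TPM in PL and 0.255 to 2.09 TPM elsewhere (log2 −1.40, SE 0.37, adjusted p = 0.017, and −1.16, adjusted p = 0.039, after the scaling). Values so near 0 make the size of this difference depend on the 0.5 TPM added to every value. The median of the 7 was 0.66, and that of all gene sums −0.57.

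Of 17 genes of the signalling path below the receptors, all had a value, and 2 passed the F test, against 18.3% of all gene sums. *GRB14*, an adaptor that dampens receptor signalling, had means of 3.63, 1.63, 3.83, 0.507 and 4.56 TPM from MG to W2 (adjusted p = 0.012, and 0.037 after the scaling). Its samples were 0 to 1.52 TPM in PL and 0.871 to 5.78 TPM elsewhere, so they overlapped. At values this low the size of a log2 difference depends on the 0.5 TPM added to every value. *GRB2*, an adaptor to the RAS path, had means of 36.9, 29.8, 25.7, 24.1 and 39.5 TPM (adjusted p = 0.046, and 0.41 after the scaling).

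In PL vs MG 2 of the 17 were higher and 4 lower, against 2.23 and 23% of all gene sums, with a median of −0.48 against −0.57 over all gene sums. The 2 higher genes, which did not pass the F test (adjusted p = 0.097 and 0.069) and were named after their values were seen, were *IRS2*, a docking protein of the IGF and insulin receptors, and *FOXO3*, a transcription factor that AKT keeps out of the nucleus. *IRS2* was 3.81, 8.57 and 15.0 TPM in PL and 2.09 to 4.82 TPM elsewhere (log2 1.55 over MG, SE 0.42, adjusted p = 0.019), and *FOXO3* was 32.0 to 44.0 TPM in PL (log2 0.67, SE 0.17, adjusted p = 0.015). After the scaling both were still higher, at 2.14 (adjusted p = 0.0041) and 1.32 (adjusted p = 0.0014), and 1 of the 17, *GRB14*, was lower (−2.12, adjusted p = 0.020). No share of all gene sums after the scaling is given for PL vs MG. In W2 vs PL 4 were higher and 1 lower as deposited. Of all gene sums, 30.4% were higher and 32.8% passed in either direction. After the scaling 1 was higher and 3 lower, against 13.1% of all gene sums in either direction.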

How the data were processed

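RNA of sow mammary tissue was sequenced on an Illumina platform after TruSeq v2 library preparation. Per the labels and the study's methods, the authors used FastQC, Trimmomatic, HISAT2 (Sscrofa11.1), SAMtools and StringTie, and named RUVs, whose part in the table is not stated. The authors describe their deposited numbers as FPKM. Each sample sums to between 997480 and 1002643, as TPM do, and the unit was taken as TPM. TPM keeps no depth, so counting error was not estimated, and no count test such as the authors' edgeR could be run on these values. The paper lists reads per library and points to raw counts in another repository, which were not used here. Transcripts were matched to the reference annotation, and 29047 assembled transcripts kept their own locus. Samples were grouped by title. Gene sums were analysed as log2(TPM + 0.5) with limma 3.58.1 in R 4.3.3: stages as groups, 1 fit, trended variance, 10 comparisons, adjustment over 26012 gene sums, threshold 0.05. A fold change on this scale understates low genes such as IGFBP3.

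Every member is named, with fold changes for pairs that passed, otherwise for the pair with the smallest p. Transcripts are named from 10% of their gene's TPM, and pathway genes when past the F test. 5 pathway genes behind small counts were named outside this rule after their values were seen. 1 further gene of the signalling list as first written is not reported here. Members and lists were chosen with earlier results of these data known. The fit was tested on simulated data, and repeated with other pseudocounts, scalings, filters and sample sets. No sequencing batch is given in the sources used here. The replicate numbers are not a pairing: different sows stood at each stage. Of 19 same-number pairs of samples 5 had deviations correlated above 0.1 (mean r 0.0081), and of 71 other-number pairs 14 (mean r −0.0022).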

Additional observations from a re-analysis of the deposited data

How the results depend on the processing

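The replicate numbers come from different sows, and 1 of 15 samples correlated best with its own number. With a replicate block, 1 gene passed the F test, 1 passed in PL vs MG, 1 in PL vs LG and 0 in PL vs EL. Counting all 6 samples per stage, copies included, gave 10 in the F test, 1 in LG vs MG, 8 in EL vs MG, 9 in PL vs MG, 1 in W2 vs MG, 4 in EL vs LG, 8 in PL vs LG, 2 in W2 vs LG, 6 in PL vs EL, 7 in W2 vs EL and 8 in W2 vs PL. The near-identical samples as 1 further sample gave 8 in the F test, 1 in EL vs MG, 9 in PL vs MG, 6 in PL vs LG, 5 in W2 vs EL and 7 in W2 vs PL. These copies of a mean narrow the spread within a stage. No share of all gene sums is given beside the counts in this section, so they do not set these genes against others. With the 2 stages alone in a fit, PL vs MG gave 1, PL vs LG 0, PL vs EL 0 and W2 vs PL 1. With the transcript of the highest mean, the F test gave 1, PL vs MG 1, PL vs EL 0 and W2 vs PL 1. Without a variance trend PL vs EL gave 1. The median ratio scaling without PL 2, chosen after seeing the data, gave 4 in PL vs LG, and W2 vs PL turned to −0.093 in IGF2R and −0.031 in IGFBP4. Other counts stayed at 0 or within 1.5 times, also with other pseudocounts, quantile normalization, a filter at a mean of 1 and milk transcripts removed. Over these 13 alternatives, the calls of IGFBP7 in PL vs MG and W2 vs PL were kept in all 13. The call was lost under 1 alternative for IGFBP7 in PL vs LG, 2 for IGFBP3 in PL vs LG, 3 each for IGFBP3 in PL vs MG and PL vs EL and IGFBP5 in PL vs MG, 5 each for IGFBP5 in PL vs EL and IGFBP4, 6 each for IGF1R and IGF2R, and 8 each for IGF2 and for IGFBP7 in PL vs EL, beside the 2 reversals. The causes were not tested.

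Leaving out each sample gave 2 to 4 in the F test, 0 to 1 in EL vs MG, 1 to 4 in PL vs MG, 2 to 4 in PL vs LG, 1 to 3 in PL vs EL, 0 to 3 in W2 vs EL, 1 to 5 in W2 vs PL and 0 to 0 in the other 4. The F test and PL vs LG had 4 without PL 2 or PL 3, W2 vs EL 3 and EL vs MG 1 without PL 2. PL vs MG had 1 without MG 3 and 2 without MG 1, MG 6, LG 1, LG 4, EL 6, PL 6, W2 3 or W2 6. PL vs EL had 1 without any of 12 samples, all but LG 4, PL 2 and PL 3. W2 vs PL had 1 without W2 3 or W2 6 and 2 without W2 2. IGFBP7 in PL vs MG, PL vs LG and W2 vs PL, and IGFBP3 in PL vs LG and PL vs EL, passed without any 1 sample. IGFBP4 lost its W2 vs PL call without PL 2, PL 6 or any W2 sample (adjusted p up to 0.13), IGF1R without PL 2, W2 3 or W2 6 (up to 0.072), IGF2R without any LG or W2 sample, EL 6 or PL 2 (up to 0.12), and IGFBP7 its PL vs EL call without any sample but LG 4 and PL 3 (up to 0.17). Precision rests on 3 sows per stage, and read counts were not used here.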
